A study of Mus musculus with 8 samples.

Results

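The 10 genes described here mark lipid-associated macrophages: Trem2, Apoe, Gpnmb, Spp1, Lpl, Fabp5, Cd9, Lgals3, Cd36 and Plin2. They were chosen by name as marker genes of that macrophage state, with earlier results of these data known, and are 10 of the 23413 genes in the count table. The counts came from tumor-associated macrophages (TAMs) of male C57BL/6 mice, 8 to 10 weeks old when B16F10 melanoma cells, a pigmented mouse line, were engrafted under the skin. Mice received DMSO (2 mice), thiostrepton by intraperitoneal injection (I.P., 4 mice) or thiostrepton injected subcutaneously beside the tumor (S.C., 2 mice, called IS in the labels). Thiostrepton is a thiopeptide antibiotic that the study had picked as an activator of macrophages. Doses were given on days 6 and 12 and tumors were collected on day 18, when the CD45+F4/80+CD11b+Gr-1- fraction was sorted, and 1 library was made per mouse. The S.C. dose was 20 mg/kg, which the study described as lower than in its I.P. experiment. Which of its I.P. doses these mice received, and the route of DMSO, were not given in the sources used here. Route and dose therefore cannot be told apart.

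TREM2 is a surface receptor that binds lipids, lipoproteins and cell debris and signals through the adaptor TYROBP. In adipose tissue, atherosclerotic plaques, injured brain and tumors, macrophages loaded with lipid express it together with a shared set of genes. These genes cover lipoproteins (Apoe), uptake and carriage of fatty acids (Lpl, Cd36 and Fabp5), storage in lipid droplets (Plin2), and lysosomal, adhesive or secreted proteins (Gpnmb, Lgals3, Cd9 and Spp1).

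The libraries held 14127506 to 17577466 counts each, and values are given as CPM, the counts of a gene relative to its library total, scaled by TMM, a library scaling that limits the pull of a few abundant genes. Macrophage markers were abundant in all mice, with a summed level of 25668 to 38927 CPM over 11 of 11 genes, led by Lyz2, C1qb and C1qc. Melanocyte markers, whose transcripts B16F10 cells make, were detected in every mouse at 475 to 3181 CPM over 12 of 12 genes. Neutrophil markers summed to 136 to 195 CPM in DMSO and I.P. mice and to 287 and 495 CPM in S.C. mice. Adipocyte markers, relevant because adipocytes also express Lpl, Cd36 and Plin2, summed to at most 0.289 CPM, and Adipoq, Cfd, Cidea, Lep and Retn had no count in any mouse.

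The region before the start site is shown for the receptor, for the lipoprotein gene and for the gene called by both routes. Trem2 lies at chr17:48346401-48354147, Apoe at chr7:19696109-19699188 on the minus strand and Gpnmb at chr6:49036546-49070929 (mm10). The 250 bases before each start in RefSeq (GRCm38.p6) are chr17:48346151-48346400 (+), chr7:19699189-19699438 (-) and chr6:49036268-49036517 (+), in lower case, with matches to the searched motifs in capitals.
Trem2: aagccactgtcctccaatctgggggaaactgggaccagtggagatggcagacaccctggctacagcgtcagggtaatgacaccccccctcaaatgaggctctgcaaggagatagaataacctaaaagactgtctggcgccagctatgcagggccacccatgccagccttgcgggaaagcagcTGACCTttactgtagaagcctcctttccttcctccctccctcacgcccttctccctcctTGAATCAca
Apoe: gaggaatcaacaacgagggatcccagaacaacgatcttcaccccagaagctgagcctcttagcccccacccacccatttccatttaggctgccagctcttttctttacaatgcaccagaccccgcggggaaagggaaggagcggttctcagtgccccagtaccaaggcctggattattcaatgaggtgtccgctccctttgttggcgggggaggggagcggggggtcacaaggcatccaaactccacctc
Gpnmb: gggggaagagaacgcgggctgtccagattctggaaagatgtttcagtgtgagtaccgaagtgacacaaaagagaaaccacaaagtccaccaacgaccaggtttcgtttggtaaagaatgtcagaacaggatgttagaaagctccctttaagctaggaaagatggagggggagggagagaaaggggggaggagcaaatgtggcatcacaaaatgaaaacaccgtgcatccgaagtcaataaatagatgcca
Both strands were searched for TCACGTG and TCATGTG, E-box letters read by MITF and TFE factors, and for AGGTCA, the half-site of many nuclear receptors. The last motif was TGANTCA, a loose form of the AP-1 letters that allows any base (N) in the middle. In the Trem2 window, AGGTCA lay on the minus strand at positions -68 to -63 and TGANTCA at positions -9 to -3, counted back from the start. The latter match was TGAATCA, with an A in the middle, and its binding was not tested. No match lay in the Apoe or Gpnmb window. Of the 8 members with a promoter in the table, 3 held any of these motifs (Trem2, Cd36 and Plin2). Among 32851 promoters of the same length, 3.13% held TCACGTG, 3.25% TCATGTG, 14.0% AGGTCA and 6.75% TGANTCA. These shares are per motif and per promoter. The count of 3 members is for any motif in any promoter of a gene, and 2 members had 2 or more promoters. The count therefore cannot be compared with the shares.

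Counted together, the 10 transcripts took 2.74% and 2.87% of all counts in the DMSO mice, 3.64% to 6.62% in I.P. mice and 4.03% and 4.81% in S.C. mice. Each of the 6 treated mice was above both DMSO mice. Apoe was the largest contributor, and without it the share was 1.75% and 2.16% in DMSO mice and 2.27% to 3.19% in treated mice, again without overlap. These are levels in sorted cell pools, in which more cells of a type and more RNA per cell cannot be told apart.

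The comparison of I.P. and DMSO mice asked which of these genes responded to systemic thiostrepton. Gpnmb rose 2.99-fold and Apoe 2.63-fold. These were the 2 of 10 members called higher (an unadjusted P below 0.05 with a difference of 2-fold or more), beside 1.53% of the 12174 genes tested, and no member was called lower. In 4 of 10 members (Trem2, Apoe, Gpnmb and Lgals3) all I.P. mice were above both DMSO mice, beside 7.29% of all genes. The same 4 had an unadjusted P under 0.05, beside 3.43% of all genes. The members are abundant, and of the 267 genes at least as abundant as the lowest member, Cd9, 4 were called higher, 32 lay above DMSO in all I.P. mice and 25 had an unadjusted P under 0.05. No member passed an adjusted p of 0.05 by edgeR's quasi-likelihood test with Benjamini-Hochberg adjustment, and neither did any other gene (0%). By DESeq2, 1 member, Gpnmb, passed, with an adjusted p of 0.0475, as did 19 genes in all. By edgeR's likelihood ratio test 10 genes passed and no member did, with an adjusted p of 0.195 for Gpnmb.

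S.C. and DMSO mice were compared in the same way for injection beside the tumor, with the same 2 DMSO mice as controls. Gpnmb rose 3.39-fold and was the 1 member of 10 called higher, beside 2.29% of the 11680 genes tested. In 7 of 10 members both S.C. mice were above both DMSO mice, beside 16% of all genes. An unadjusted P under 0.05 was found for 2 members, Gpnmb and Apoe, beside 5.41% of all genes. Of the 267 genes at least as abundant as Cd9, 12 were called higher, 70 lay above DMSO in both S.C. mice and 18 had an unadjusted P under 0.05. Again no member and no other gene (0%) passed an adjusted p of 0.05 by edgeR's quasi-likelihood test, and DESeq2 passed Gpnmb (adjusted p = 0.024) among 107 genes. The likelihood ratio test in edgeR passed 179 genes and no member, with an adjusted p of 0.0557 for Gpnmb. The median log2 fold change of the members was 0.41 for I.P. and 0.52 for S.C., where that of all genes tested was 0.02 for each route.

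**Figure D1:**
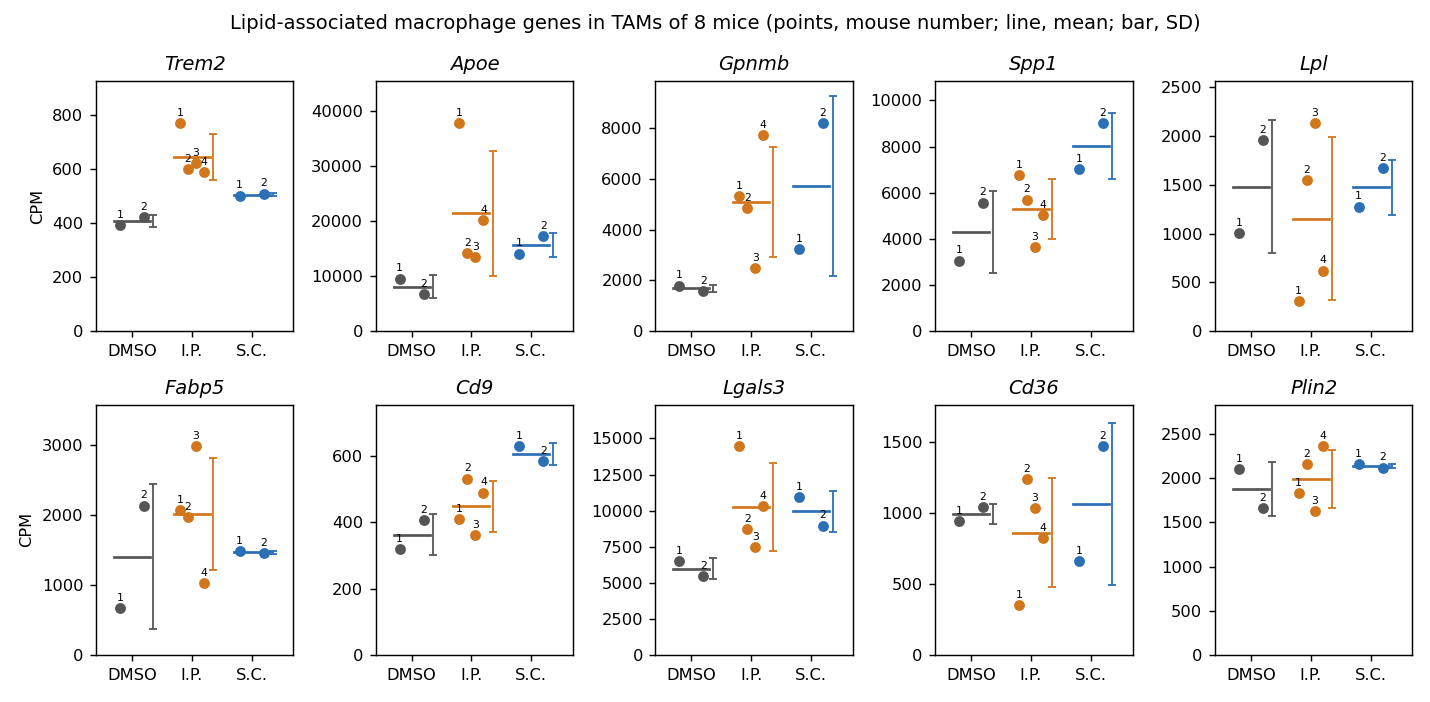
CPM of each of the 10 genes in each mouse (linear axes from 0), with numbered points for mice, grouped as DMSO, I.P. and S.C., lines for the group means and bars for the SD. Gpnmb was 1587 and 1797 CPM in DMSO mice and 2483 to 8221 CPM in treated mice, whereas Lpl, Cd36 and Fabp5 overlapped between all groups.

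Trem2, the receptor, was 393 and 424 CPM in DMSO mice, 590, 602, 623 and 773 CPM in I.P. mice, and 503 and 510 CPM in S.C. mice. All 6 treated mice were above both DMSO mice, and all I.P. mice were above both S.C. mice. The I.P. difference was 1.58-fold (log2 0.66, SE 0.23, 95% interval 0.14 to 1.17, edgeR quasi-likelihood adjusted p = 0.98), larger than the spread within groups but under 2-fold. For S.C. the log2 difference was 0.31 with an interval from -0.38 to 1.01, which holds both no difference and a doubling.

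Apoe encodes apolipoprotein E, which carries cholesterol out of macrophages and is a ligand of TREM2. It was 6678 and 9536 CPM in DMSO mice, 13475, 14219, 20197 and 37843 CPM in I.P. mice, and 14072 and 17245 CPM in S.C. mice. No treated mouse overlapped with DMSO, and I.P. mouse 1 stood far above the rest, with 3.57% of its counts from this 1 gene against 0.713% and 0.991% in DMSO mice. The log2 fold change was 1.39 for I.P. (SE 0.46, edgeR quasi-likelihood adjusted p = 0.98). For S.C. it was 0.95 (SE 0.34, edgeR quasi-likelihood adjusted p = 0.846), a 1.93-fold difference just under the 2-fold limit. The I.P. call depended on single mice: without I.P. mouse 1 the log2 fold change was 0.97, under the limit, and without DMSO mouse 2 it was 1.17 and missed the P threshold.

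GPNMB is a transmembrane glycoprotein of lysosomes and phagocytes that was first known from melanoma and pigment cells. Gpnmb was 1587 and 1797 CPM in DMSO mice, 2483, 4857, 5312 and 7737 CPM in I.P. mice, and 3227 and 8221 CPM in S.C. mice. Every treated mouse exceeded both DMSO mice, and the treated mice spread over 3-fold among themselves. The log2 fold change was 1.58 for I.P. (SE 0.42, 95% interval 0.63 to 2.53, edgeR quasi-likelihood adjusted p = 0.98). It was 1.76 for S.C. (SE 0.50, 95% interval 0.51 to 3.01, edgeR quasi-likelihood adjusted p = 0.747). With each I.P. mouse left out in turn, Gpnmb kept its I.P. call, at log2 fold changes of 1.32 to 1.80. Without S.C. mouse 2, which left 1 S.C. mouse, the S.C. log2 fold change was 0.91, under the 2-fold limit.

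Since pigment cells also transcribe Gpnmb, its level was set beside the summed melanocyte markers, led by Dct, Tyrp1 and Pmel. The sum was 651 and 731 CPM in DMSO mice. It was 475, 553, 1090 and 1877 CPM in I.P. mice 3, 1, 2 and 4, and 3181 and 755 CPM in S.C. mice 1 and 2. S.C. mouse 1, with the highest sum, had the lower Gpnmb level of its group. S.C. mouse 2 had the highest Gpnmb level with a sum near DMSO. Among I.P. mice, mouse 4 had both the highest sum and the highest Gpnmb level (7737 CPM), and mouse 3 the lowest of both (2483 CPM). Mouse 1 had more Gpnmb than mouse 2 (5312 and 4857 CPM) at a lower sum. Of the 12 genes of the melanocyte list, 3 (Tyrp1, Dct and Sox10) were called higher in S.C. mice, beside 2.29% of all genes. In I.P. mice 0 were called higher, beside 1.53% of all genes. With the 3 mice above 1000 CPM left out (I.P. mice 2 and 4 and S.C. mouse 1), an omission chosen with the values in view, the I.P. log2 fold change was 1.23 for Gpnmb and 1.69 for Apoe, both called, with 2 mice in each group. For S.C. this left 1 mouse, S.C. mouse 2 with the highest Gpnmb level, in a fit that called 2989 of 12210 genes, and nothing is read from its call of Gpnmb. The part of tumor-cell RNA in the Gpnmb values was not tested further.

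**Figure D2:**
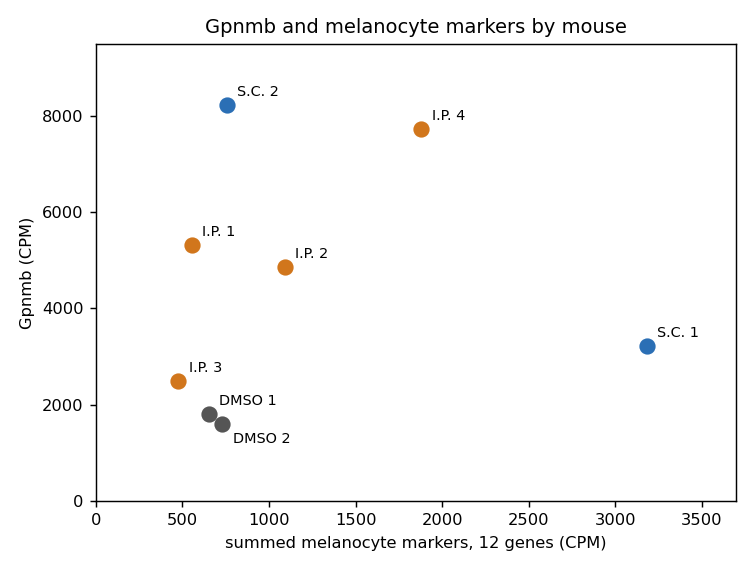
Gpnmb (CPM, vertical) against the summed CPM of 12 melanocyte markers (horizontal), both on linear axes, with 1 point per mouse, coloured by group. S.C. mouse 1 had the highest marker sum (3181 CPM) with 3227 CPM of Gpnmb, and S.C. mouse 2 had 8221 CPM of Gpnmb at a sum of 755 CPM. Among I.P. mice, mouse 4 was highest in both (7737 CPM of Gpnmb at a sum of 1877 CPM) and mouse 3 lowest in both.

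Lgals3 encodes galectin-3, a sugar-binding protein that gathers at damaged lysosomes and is secreted by macrophages. It was 5449 and 6519 CPM in DMSO mice, 7454, 8703, 10308 and 14448 CPM in I.P. mice, and 8961 and 10958 CPM in S.C. mice. All treated mice were above both DMSO mice, without reaching 2-fold on average. The log2 difference was 0.77 for I.P. (SE 0.31, edgeR quasi-likelihood adjusted p = 0.98) and 0.74 for S.C. (SE 0.31, edgeR quasi-likelihood adjusted p = 0.938).

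Spp1 and Cd9 were separated from DMSO in the S.C. mice and overlapped with it in the I.P. mice. Spp1, which encodes the secreted adhesive protein osteopontin, was 3064 and 5573 CPM in DMSO mice, 3652, 5041, 5700 and 6770 CPM in I.P. mice, and 7019 and 9035 CPM in S.C. mice. Cd9, a tetraspanin that organises proteins in the membrane, was 319 and 407 CPM in DMSO mice, 363, 411, 490 and 532 CPM in I.P. mice, and 584 and 629 CPM in S.C. mice. In both genes the S.C. mice were above all other mice. Neither passed a threshold: the S.C. log2 difference from DMSO was 0.90 for Spp1 (SE 0.40, edgeR quasi-likelihood adjusted p = 0.952) and 0.74 for Cd9 (SE 0.30, edgeR quasi-likelihood adjusted p = 0.928).

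The genes for uptake, carriage and storage of fatty acids gave no call by either route. Lpl, the lipase that frees fatty acids from lipoproteins, was 1004 and 1961 CPM in DMSO mice, 312, 620, 1550 and 2136 CPM in I.P. mice, and 1278 and 1674 CPM in S.C. mice. The I.P. mice lay on both sides of DMSO and spread 6.84-fold, the widest I.P. range among the members. The I.P. log2 difference of -0.36 had an interval from -1.89 to 1.17, so that changes of over 2-fold either way are not excluded.

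Cd36, a scavenger receptor and fatty acid transporter, was 940 and 1039 CPM in DMSO mice, 350, 820, 1035 and 1240 CPM in I.P. mice, and 660 and 1467 CPM in S.C. mice. Here the DMSO mice nearly coincided, and treated mice fell on either side of them. Fabp5, which carries fatty acids in the cytosol, was 671 and 2133 CPM in DMSO mice, 1024, 1974, 2067 and 2980 CPM in I.P. mice, and 1453 and 1482 CPM in S.C. mice. Its 2 DMSO mice differed 3.18-fold, more than in 98.8% of the 9325 genes whose mean reached 5 CPM, so that its comparison with DMSO rests on a wide control. The direction of Fabp5 depended on which DMSO mouse was left out. Without DMSO mouse 2 its log2 fold change was 1.59 for I.P. and 1.12 for S.C. Without DMSO mouse 1 it was -0.08 for I.P. and -0.55 for S.C.

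Plin2, the coat protein of lipid droplets, was the steadiest member. It was 1665 and 2098 CPM in DMSO mice, 1629, 1829, 2158 and 2359 CPM in I.P. mice, and 2119 and 2155 CPM in S.C. mice. The log2 difference was 0.08 for I.P. and 0.19 for S.C., the latter with a 95% interval from -0.55 to 0.93.

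**Figure D3:**
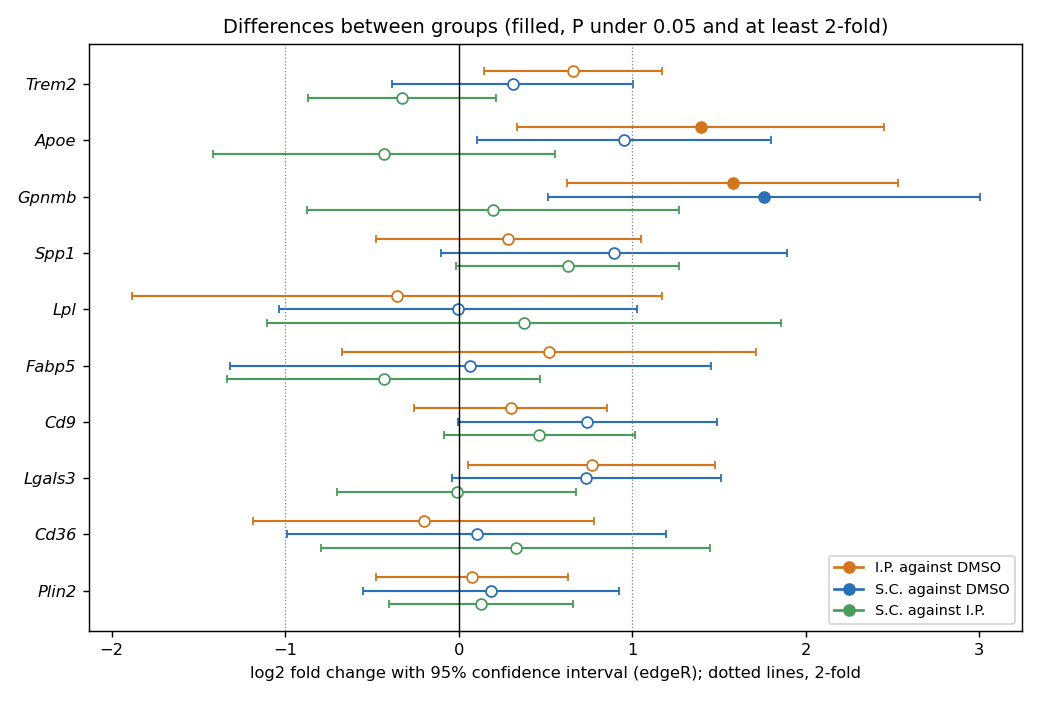
Log2 fold change of each gene (points) with its 95% interval (bars) for I.P. against DMSO, S.C. against DMSO and S.C. against I.P., from edgeR's quasi-likelihood fit. The intervals of Gpnmb lay above 0 for both routes (0.63 to 2.53 for I.P. and 0.51 to 3.01 for S.C.), and those of Lpl, Cd36, Fabp5 and Plin2 spanned 0 in all 3 comparisons.

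Mice given the drug by the same route differed from each other in these genes. I.P. mouse 1 had the highest Apoe, Lgals3, Trem2 and Spp1 of its group and the lowest Lpl and Cd36, at log2 differences of -2.17 and -1.50 from the DMSO mean. The order of the I.P. mice was mouse 1, 4, 2 and 3 from high to low for both Apoe and Lgals3, and exactly the reverse for Lpl. I.P. mouse 4 had the highest Gpnmb of its group and the next lowest Lpl, at a log2 difference of -1.18 from the DMSO mean. Of the 10 members, 6 to 8 were above both DMSO mice in each treated mouse, beside 28.2% to 39.8% of the genes whose mean reached 5 CPM. Below both DMSO mice were 0 to 2 members, beside 29.2% to 44.4% of those genes.

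Monocyte markers also differed between mice, but not together. Their sum was 94.5 and 184 CPM in DMSO mice, 401 CPM in I.P. mouse 1 and 31.9 to 152 CPM in the other I.P. mice. Chi3l3, also a gene of alternative activation, made up 287 CPM of the sum in I.P. mouse 1. Ccr2, the chemokine receptor of monocytes, was 60.1 and 79.6 CPM in DMSO mice and 7.34 to 20.7 CPM in I.P. mice. It was the 1 of 8 monocyte markers called for I.P. (lower), beside 57 of all 12174 genes tested. Their part in the values of the members was not tested.

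**Figure D4:**
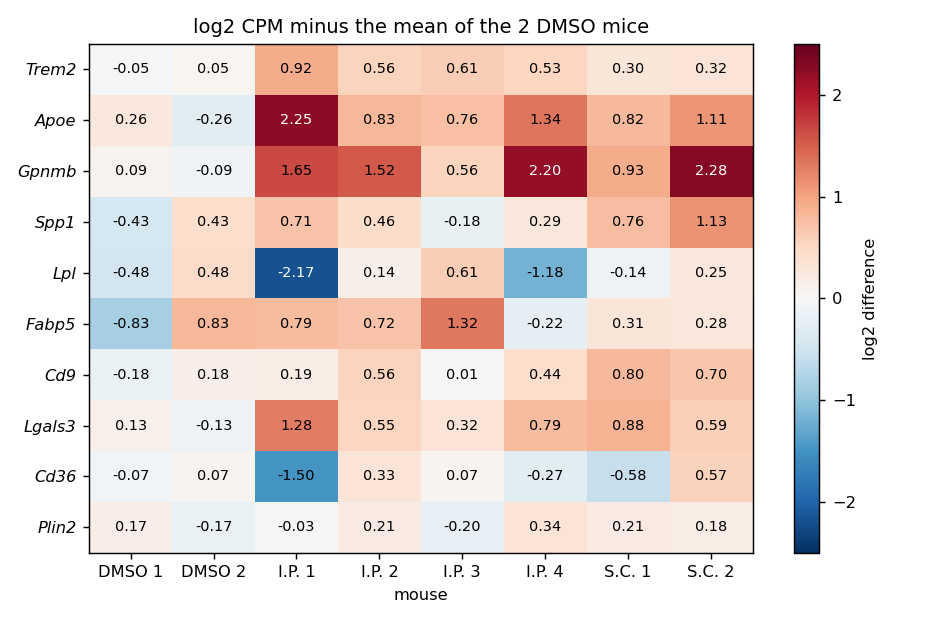
Log2 difference of each gene from the mean of the 2 DMSO mice, in each of the 8 mice (columns), printed in each cell and coloured from lower (blue) to higher (red). Gpnmb was above the DMSO mean in all 6 treated mice, and Lpl ranged down to -2.17 in I.P. mouse 1.

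The routes were also set against each other. No member was called between S.C. and I.P. mice, beside 7.05% of the 12206 genes tested, and no gene (0%) passed an adjusted p of 0.05 by edgeR's quasi-likelihood test. The groups did not overlap in 3 of 10 members, beside 18.5% of all genes: Spp1 and Cd9 were above, and Trem2 was below, in both S.C. mice. The log2 difference was 0.63 for Spp1 (95% interval -0.01 to 1.27), 0.47 for Cd9 (-0.09 to 1.02) and -0.33 for Trem2 (-0.87 to 0.22). Gpnmb, the gene called by both routes, differed by 0.20 with an interval from -0.88 to 1.27, which leaves a difference of over 2-fold possible.

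Per kilobase of transcript, Apoe was the most abundant of the 10 in DMSO mice with 5758 CPM per kb, followed by Lgals3 with 4217 and Spp1 with 2866 CPM per kb. Fabp5 had 1421, Plin2 997, Gpnmb 457, Trem2 376, Lpl 360, Cd9 296 and Cd36 291 CPM per kb. The last 5 of these lay close together, and Gpnmb left them in treated mice. Its level was 1377 CPM per kb in I.P. and 1547 CPM per kb in S.C. mice, above Plin2 with 1056 and 1132 CPM per kb, while the other 4 were between 253 and 595 CPM per kb.

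Genes around the members in the same pathways were counted next. TREM2's signalling partners gave 0 calls of 12 in each of the 3 comparisons. Tyrobp, the adaptor, named after its values were seen, was 874 and 1028 CPM in DMSO mice, 1035 to 2019 CPM in I.P. mice, and 1386 and 1565 CPM in S.C. mice. As with Trem2, all treated mice were above both DMSO mice, the lowest by only a few CPM.

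Genes of cholesterol efflux and apolipoproteins, the pathway of Apoe, differed in number of calls between the comparisons. For I.P. against DMSO, 10 of 10 had a positive log2 fold change (median 0.72), 8 lay above DMSO in all I.P. mice (7.29% of all genes), and 2 were called higher (1.53% of all genes). The called genes were Apoc2 and Apoc4, neighbours of Apoe on chromosome 7. Apoc2, which encodes the activator of lipoprotein lipase, was 19.1 and 20.3 CPM in DMSO, 25.1 to 81.9 CPM in I.P. and 28.5 and 41.9 CPM in S.C. mice. Apoc4 stood near the detection floor, with 2 and 5 counts in DMSO, 11 to 74 counts in I.P. and 1 and 0 counts in S.C. mice, and no fold is given.

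For S.C. against DMSO, 1 of 8 genes of this list was called lower, beside 2.77% of all genes, and 0 higher. This was Abcg1, a cholesterol exporter, with 69.7 and 75.6 CPM in DMSO and 25.7 and 36.4 CPM in S.C. mice (log2 -1.22, SE 0.36, edgeR quasi-likelihood adjusted p = 0.747). Between the routes, 10 of 10 were lower in S.C. mice (median -0.59) and 3 were called lower, beside 4.64% of all genes. These were Abcg1, Apoc4 and Npc1, which moves cholesterol out of lysosomes and was 83.3 to 146 CPM in I.P. and 33.3 and 39.9 CPM in S.C. mice.

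Among 20 other genes of lipid-associated and disease-associated macrophages, 1 was called higher for I.P. (1.53% of all genes) and 4 for S.C. (2.29% of all genes), and 0 lower for either. The I.P. gene was Syngr1, with 128 and 146 CPM in DMSO and 200 to 423 CPM in I.P. mice. For S.C., 12 of the 20 lay above DMSO in both mice, beside 16% of all genes. The called genes were Itgax, the integrin CD11c, Clec7a, the beta-glucan receptor Dectin-1, Atp6v0d2, a proton pump subunit, and Ctss, the protease cathepsin S. Itgax was 13.2 and 23.3 CPM in DMSO, 19.5 to 30.1 CPM in I.P. and 70.4 and 124 CPM in S.C. mice. Itgax and Clec7a were also the 2 genes of this list called higher in S.C. than in I.P. mice, beside 2.41% of all genes. Itgax also marks dendritic cells, whose other markers summed to 2.48 and 8.44 CPM in DMSO and 9.54 and 30.1 CPM in S.C. mice. Markers of other myeloid cells were also called in S.C. mice against DMSO mice. Of 9 neutrophil markers, 9 were higher (median log2 3.06) and 5 were called higher, beside 2.29% of all genes: S100a8, S100a9, Ngp, Ltf and Camp. Of 8 monocyte markers, 5 were higher and 3 lower, and 2 were called higher (2.29% of all genes), among them Ly6c2. Ly6c2 was 2.79 and 3.23 CPM in DMSO and 10.9 and 28.2 CPM in S.C. mice, whereas Ccr2 was 60.1 and 79.6 CPM in DMSO and 59.5 and 76.1 CPM in S.C. mice. The part of these cells in the S.C. values of this list and of the members was not tested.

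The remaining lists held few calls. In lipid droplet and fatty acid genes, 1 of 17, Mgll, a monoglyceride lipase, was called higher for I.P., beside 1.53% of all genes. For S.C. and between the routes 0 were called. Mgll was 2.37 and 2.45 CPM in DMSO and 5.63 to 24.0 CPM in I.P. mice. Among genes of lipid uptake, 0 of 12 were called for I.P. For S.C., 1 of 11, the scavenger receptor Marco, was called lower, beside 2.77% of all genes. Marco was 21.9 ± 9.74 CPM in DMSO and 6.30 ± 2.37 CPM in S.C. mice (SD, n = 2 each). Between the routes, Marco and Lrp1, a lipoprotein receptor, were called lower in S.C. mice (4.64% of all genes). Olr1, a receptor for oxidised lipoprotein, was called higher (2.41% of all genes). Olr1 rested on 1 library, with 290 counts in S.C. mouse 2, 1 count in S.C. mouse 1 and 3 to 18 counts in I.P. mice. The transcriptional regulators of lipid genes gave 0 calls of 12 in each comparison.

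**Figure D5:**
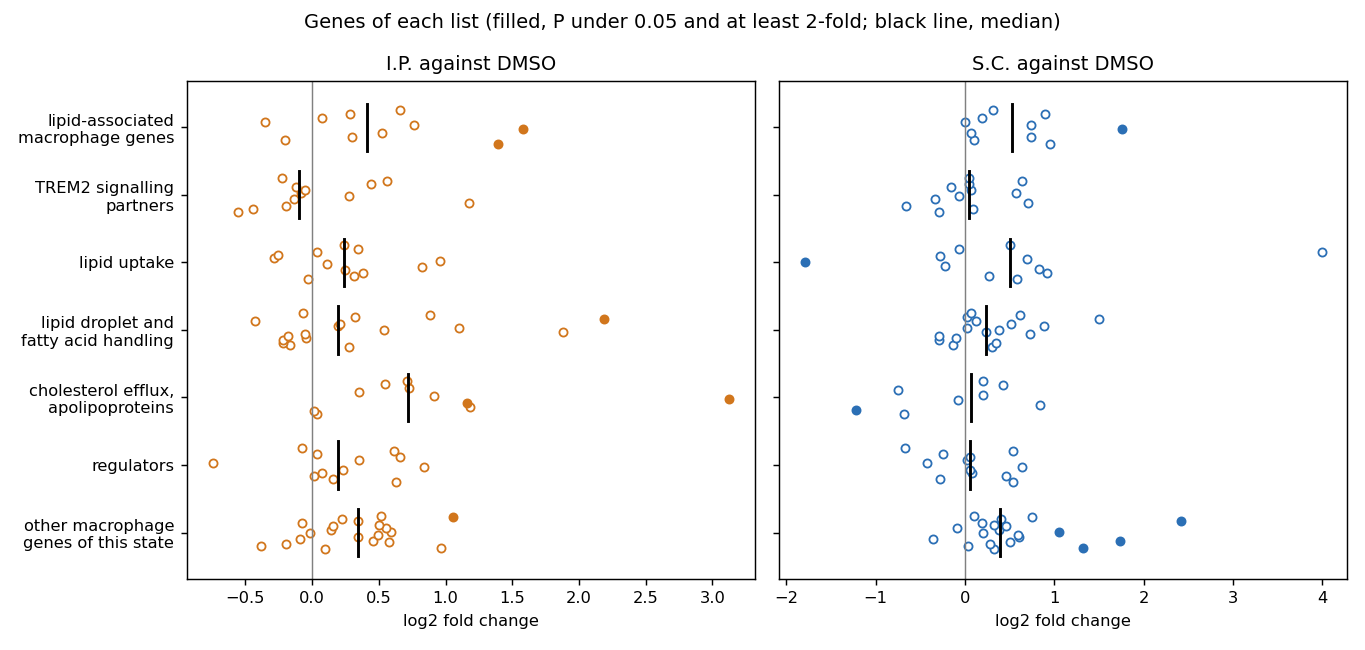
Log2 fold change of each gene (points) in the members and the lists around them, for I.P. and S.C. against DMSO on axes of different range, with filled points for called genes and a black line at the list median. The median of the cholesterol efflux list was 0.72 for I.P. and 0.06 for S.C., and that of the members was 0.41 and 0.52.

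The genes whose log2 CPM followed Trem2 most closely over the 8 mice, of 9324 compared, were Ndst1 (Pearson's r 0.96), Htatip2, Aig1 and Jdp2 (each 0.95) and Sil1 (0.94). For Gpnmb they were Rnf128 and Tnfaip2 (each 0.96) and Dcaf11, Rcan1 and Arhgap24 (each 0.95). Among the members, Trem2 was most like Apoe (0.86) and Lgals3 (0.76), and least like Lpl and Cd36 (each -0.51). These are descriptions over 8 libraries that share their group differences and scaling, and high values arise easily when so many genes are compared with so few mice.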

How the data were processed

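RNA-seq was analysed for TAMs of 8 mice, grouped by the treatment in their labels, with 1 library per mouse. The labels name no batch. Whole-number counts per gene were deposited by the authors without normalization. The study's methods name bowtie2 and RSEM, whereas the submitters' processing notes list TopHat2 and edgeR, both with mm10, and which aligner made the table could not be settled. The members and all gene lists were chosen with earlier results of these data known.

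The software was R 4.3.3, DESeq2 1.42.0, limma 3.58.1 and edgeR 4.0.16. Low genes were removed by filterByExpr with a minimum count of 10 and a minimum total of 15, and libraries were scaled by TMM. Separate fits were made for each 2 groups, which were compared by edgeR's two-sided quasi-likelihood test, with Benjamini-Hochberg adjustment over all genes tested. Called genes had an unadjusted P below 0.05 with a 2-fold or larger difference. The SE is the size of the log2 fold change divided by the square root of F, and 95% intervals use the fitted degrees of freedom. With 4 against 2 mice an exact two-sided permutation test cannot go below p = 0.133, and with 2 against 2 not below 0.333. A floor of 3 counts was 0.168 to 0.217 CPM and covers counting error only. Log2 CPM used a prior count of 2. Levels per kilobase used the longest principal transcript of GENCODE vM21, and promoters came from RefSeq.

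All 10 members were named. Of the pathway lists, genes called in a comparison were named, and any other gene is marked where it appears. Of the marker lists, genes with the highest means, genes without a count and some called genes were named. Other calls among markers were left unnamed. Macrophage marker Adgre1 was matched by its older symbol Emr1, and Ly6g and Ms4a4a were not analysed here. The alternatives were other filters and scalings, DESeq2, a likelihood ratio test in edgeR, a joint fit of all groups, a replicate block and leaving out each mouse. A crossed block and leaving out mice high in melanocyte markers were chosen after the data were seen. The procedure was tested on simulated data.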

Additional observations from a re-analysis of the deposited data

How the results depend on the processing

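With each mouse left out in turn, 1 to 2 members were called for I.P. and 0 to 3 for S.C., and none between the routes (0 to 0). For I.P., 1 remained without I.P. mouse 1. For S.C., 0 were called without S.C. mouse 2, 2 without DMSO mouse 1 (Apoe and Gpnmb) and 3 without DMSO mouse 2 (Gpnmb, Spp1 and Fabp5). Where 1 mouse was left in a group, it was assumed to vary like the others. When any single mouse was left out, some members without a call kept their direction in each comparison. In others the log2 fold changes crossed 0. For I.P. they ranged from -0.0772 to 0.79 for Spp1, -0.0802 to 1.59 for Fabp5, -0.85 to 0.20 for Lpl, -0.0791 to 0.255 for Plin2 and -0.43 to 0.0562 for Cd36. For S.C. they ranged from -0.55 to 1.12 for Fabp5, -0.42 to 0.55 for Lpl and -0.61 to 0.56 for Cd36. Between the routes they ranged from -0.62 to 0.0087 for Apoe, -0.17 to 0.21 for Lgals3, -0.62 to 0.71 for Gpnmb and -0.35 to 0.79 for Cd36.

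Correlations of the deviations of same-numbered mice lay between -0.187 and 0.17, and those of other pairs between -0.28 and 0.28. In a group of 2 the deviations mirror each other, so these values cannot show whether same-numbered mice share more than a number. With the replicate block the same members were called for each route, and 1 member, Lpl (log2 1.09), was called between the routes. For S.C. the crossed block also called 1 member. The S.C. value of Lpl was near 0 and turned to 0.017 with RLE factors, 0.017 with DESeq2, 0.0198 with all groups in 1 fit, 0.0612 with the replicate block, 0.0611 with the crossed block and 0.16 without mice high in melanocyte markers. Cd36 in S.C. mice was -0.054 by library size only, -0.0047 with the replicate block and -0.0046 with the crossed block. Fabp5 in S.C. mice was -0.0949 by library size only, and Plin2 in I.P. mice was -0.10 without mice high in melanocyte markers. The cause was not tested. Of the other planned values, 232 kept their direction and side of the threshold.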
